A study of Mus musculus with 8 samples.

Results

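The genes described here are 10 regulators of mitochondrial gene expression, namely the PGC-1 coactivators (Ppargc1a, Ppargc1b and Pprc1), the estrogen-related receptors or ERR (Esrra, Esrrb and Esrrg), the fatty acid-sensing receptors PPAR alpha and PPAR delta (Ppara and Ppard), the nuclear respiratory factor gene Nrf1 and the mitochondrial transcription factor gene Tfam. All 10 were measured, among 22180 genes in all. They were chosen by function, and were proposed with the digoxin against vehicle values of these hearts already known. The values from that comparison are therefore given for the 10 genes as a description, and calls among them stand for no independent test. Hearts of wild-type male mice, aged 8 to 10 weeks and labelled C57BL6JRj (C57BL6/J in the growth protocol), were collected at ZT9, after an injection into the peritoneum at ZT5 (ZT0 is lights-on). The injection held digoxin at 1 mg/kg (5 hearts) or the ethanol and propylene glycol co-solvent alone (3 hearts). Digoxin is a cardiac glycoside, which inhibits the Na/K-ATPase. The design text counts 4 vehicle samples, of which the fourth was not analysed here.

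PGC-1 alpha and PGC-1 beta, the products of Ppargc1a and Ppargc1b, bind no DNA themselves. They dock on nuclear receptors and other factors and recruit the transcription machinery. Through the ERRs and NRF1 they promote the nuclear genes of the respiratory chain. They promote the mitochondrial genome through TFAM, which packages mitochondrial DNA and acts as a factor in its transcription. With PPAR alpha they promote the genes of fatty acid oxidation, the main fuel pathway of the adult heart. Pprc1 encodes the third family member, PRC, which is known as a growth-regulated coactivator of NRF1.

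Expression was read on Affymetrix GeneChips of the Mouse Gene 2.0 ST type, and every value below is log2 expression centred for each probe set by the authors. Such values compare arrays within a gene, and they cannot show how strongly a gene is expressed, which of the 10 genes is the most abundant, or whether a marker is present. The interquartile range over probe sets was 0.216 on vehicle replicate 3 and between 0.0792 and 0.115 on the other 7 arrays. No pair of arrays held identical values. Precision is limited by the number of arrays. Nothing in the labels ties a sample to its own animal, so a p value covers the spread between samples, whatever its source. In whole hearts, fewer cells of a type and less RNA per cell cannot be told apart.

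Upstream sequence is shown for the genes whose groups lay furthest apart, together with Esrra, which shares an element with one of them. RefSeq (GRCm38.p6) gave windows for 9 of the 10 genes, 14 windows in all, and none for Ppargc1b. Each window runs from 250 bases before to 50 bases after an annotated start, and the 250 upstream bases are printed 5′ to 3′ on the gene's strand, with matches to a searched element in capitals.

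Ppara, chr15:85735526-85735775, plus strand: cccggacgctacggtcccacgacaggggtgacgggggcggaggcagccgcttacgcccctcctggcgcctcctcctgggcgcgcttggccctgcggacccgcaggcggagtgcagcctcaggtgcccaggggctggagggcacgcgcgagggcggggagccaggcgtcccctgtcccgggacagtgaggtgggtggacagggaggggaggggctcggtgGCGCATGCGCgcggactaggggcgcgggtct

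Ppargc1a, chr5:51567726-51567975, minus strand: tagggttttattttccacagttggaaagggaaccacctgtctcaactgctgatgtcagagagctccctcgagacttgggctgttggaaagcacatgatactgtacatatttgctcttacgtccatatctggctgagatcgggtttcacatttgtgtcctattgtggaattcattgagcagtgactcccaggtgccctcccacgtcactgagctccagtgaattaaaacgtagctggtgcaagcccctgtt

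Pprc1, chr19:46056289-46056538, plus strand: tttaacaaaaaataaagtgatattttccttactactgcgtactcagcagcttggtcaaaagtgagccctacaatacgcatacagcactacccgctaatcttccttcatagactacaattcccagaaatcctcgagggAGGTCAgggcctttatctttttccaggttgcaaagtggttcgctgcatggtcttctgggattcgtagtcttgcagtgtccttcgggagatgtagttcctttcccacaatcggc

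Esrra, chr19:6921809-6922058, minus strand: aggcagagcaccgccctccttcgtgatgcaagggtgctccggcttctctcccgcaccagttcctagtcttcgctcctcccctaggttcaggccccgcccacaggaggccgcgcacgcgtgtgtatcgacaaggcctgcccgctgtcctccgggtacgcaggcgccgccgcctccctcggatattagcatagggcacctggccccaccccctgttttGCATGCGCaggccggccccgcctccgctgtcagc

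Both strands of all 32851 windows were searched for 6 elements. The NRF1 core (GCATGCGC) lay in 2 of the 14 windows, those of Ppara and Esrra, and in 2.71% of all windows. In Ppara the core was matched on both strands at overlapping positions, spanning positions -31 to -22 counted from the start (the base before it is -1), and in Esrra once, at positions -34 to -27. The nuclear receptor core (AGGTCA) lay in 1 of the 14 windows, that of Pprc1, and in 16.3% of all windows. The ETS core (CCGGAAG), the type of site that GABP binds, lay in 1, that of Tfam, and in 8.86% of all windows. The ERR element (TNAAGGTCA, which contains the nuclear receptor core), the cAMP element (TGACGTCA) and the E-box (CACGTG) lay in none of the 14, and in 1.28%, 1.79% and 7.15% of all windows. A match of these letters is a description of the window and not a shown binding site. Only these letters were searched, so a window without a match can still hold a variant of an element.

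In digoxin hearts the coactivator gene Ppargc1b fell and the receptor gene Ppara rose, while the 3 ERR genes, Nrf1 and Tfam overlapped between the groups. The other 2 coactivator genes lay on opposite sides without passing the test, with Ppargc1a higher and Pprc1 lower in every digoxin array than in any vehicle array. Of the 10 genes, 2 passed the adjusted p threshold of 0.05 in limma, against 1.36% of all genes. In the direction of Ppara 1 of the 10 passed (0.947% of all genes were called higher), and in that of Ppargc1b 1 of the 10 (0.415% were called lower). The groups did not overlap in 5 of the 10 genes, against 8.16% of all genes. The rule for the 10 genes used the same comparison, so nothing is read from these shares. The median log2 change was 0.089 over the 10 genes (0.0071 without vehicle replicate 3) and -0.011 over all genes.

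**Figure D1:**
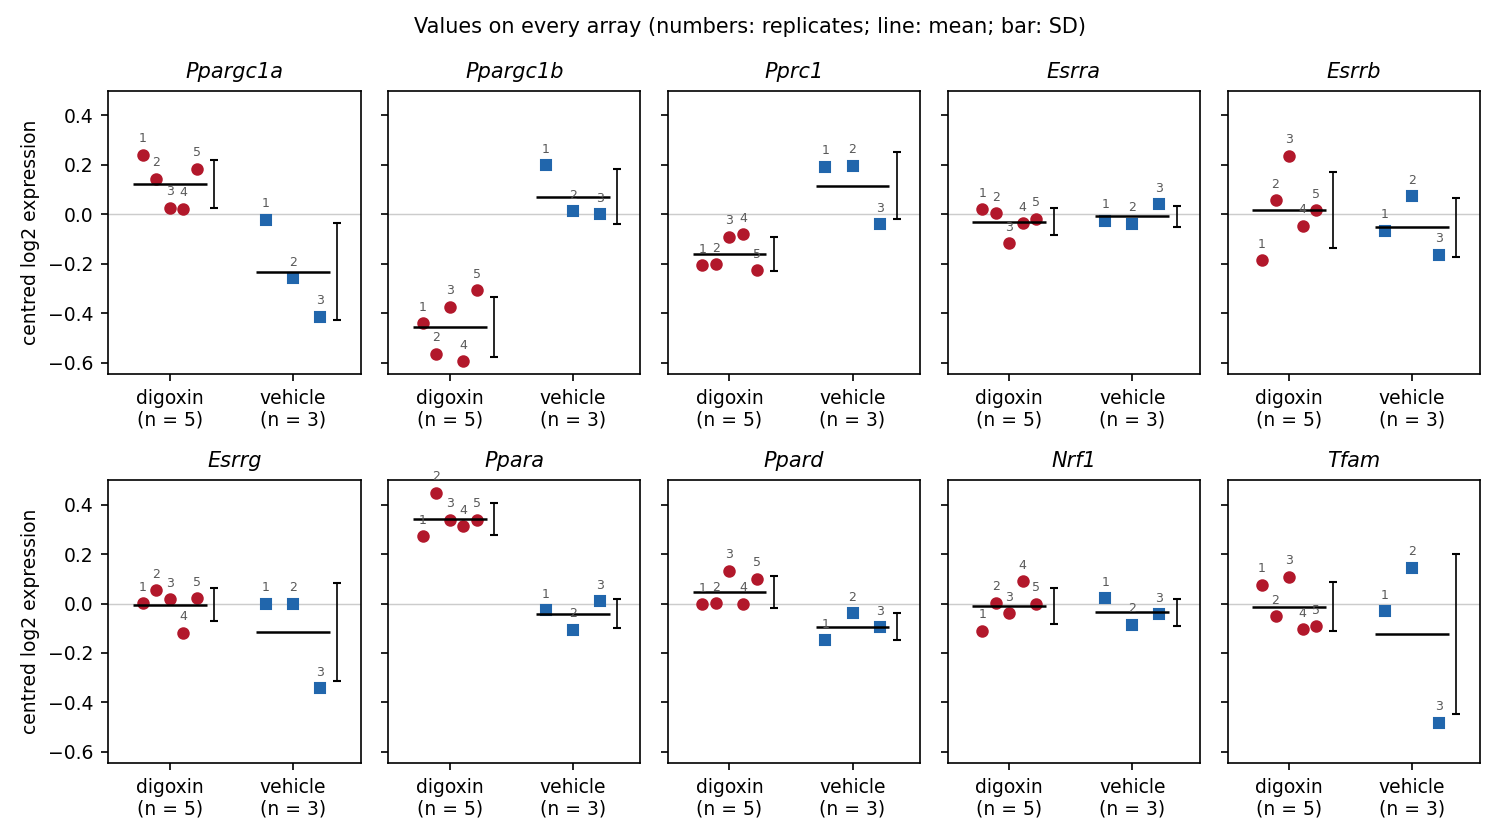
Centred log2 expression (vertical axis) of each regulator on the 5 digoxin arrays (red circles) and the 3 vehicle arrays (blue squares), with replicate numbers, group means as lines and the SD as bars. Digoxin and vehicle arrays are apart for Ppargc1a, Ppargc1b, Pprc1, Ppara and Ppard, and vehicle replicate 3 is far below the other arrays for Esrrg (-0.34) and Tfam (-0.48).

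Ppargc1b, which encodes PGC-1 beta, had centred log2 values of -0.44, -0.56, -0.37, -0.59 and -0.31 in digoxin replicates 1 to 5, against 0.20, 0.013 and 0.00 in vehicle replicates 1 to 3. Every digoxin heart was below every vehicle heart, and the highest digoxin value was 0.31 under the centre while no vehicle value was below it. The means were -0.46 ± 0.12 in digoxin hearts and 0.070 ± 0.11 in vehicle hearts (SD, n = 5 and 3). The log2 change was -0.53 (SE 0.08, 95% interval -0.71 to -0.35), so that the vehicle level was 1.44 times the digoxin level. Only 0.230% of all genes had a more negative change. The change kept its size with any array left out (-0.56 to -0.46), but the adjusted p in limma was 0.055 without vehicle replicate 1 and 0.0537 without vehicle replicate 2.

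Ppargc1a, which encodes PGC-1 alpha, stood on the other side of its vehicle arrays. Its centred log2 values were 0.24, 0.14, 0.027, 0.023 and 0.18 in digoxin replicates 1 to 5, against -0.021, -0.26 and -0.41 in vehicle replicates 1 to 3. The groups did not overlap, but the gap between the lowest digoxin array and the highest vehicle array was small, and the vehicle arrays were wide apart. The means were 0.12 ± 0.10 in digoxin hearts and -0.23 ± 0.20 in vehicle hearts (SD, n = 5 and 3). The log2 change was 0.36 (SE 0.09, 95% interval 0.15 to 0.56), or 1.28 times the vehicle level. Ppargc1a did not pass in limma (adjusted p = 0.129). Leaving out 1 array moved the change from 0.26, when vehicle replicate 3 was dropped, up to 0.46 when vehicle replicate 1 was, and in the second case it passed (adjusted p = 0.0443).

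The distance between both coactivators on the same array also separated the groups. That had to be so, because each gene alone was without overlap, in opposite directions. The distance is therefore a description and adds no evidence for either gene. The centred value of Ppargc1a minus that of Ppargc1b was 0.68, 0.71, 0.40, 0.62 and 0.49 in digoxin replicates 1 to 5, against -0.22, -0.27 and -0.41 in vehicle replicates 1 to 3. The difference was positive in all 5 digoxin hearts and negative in all 3 vehicle hearts. Its mean was 0.58 ± 0.13 in digoxin hearts and -0.30 ± 0.10 in vehicle hearts (SD, n = 5 and 3), which is 0.88 apart. Because each gene is centred on its own constant, the sign on a single array has no meaning as a ratio of levels, and the values describe the unequal change of the pair.

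**Figure D2:**
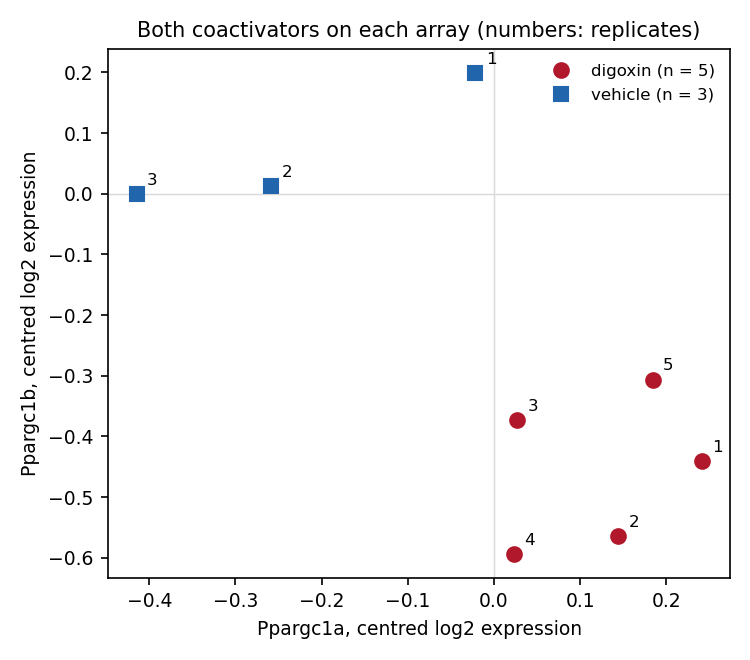
Centred log2 expression of Ppargc1a (horizontal axis) and Ppargc1b (vertical axis) on each array, with digoxin arrays as red circles (n = 5), vehicle arrays as blue squares (n = 3) and replicate numbers beside the points. The digoxin arrays lie at the lower right, with Ppargc1b between -0.59 and -0.31, and the vehicle arrays at the upper left, with Ppargc1b between 0.00 and 0.20.

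Pprc1 lay on the same side as Ppargc1b, at a smaller distance. Its centred log2 values were -0.21, -0.20, -0.091, -0.081 and -0.23 in digoxin replicates 1 to 5, against 0.19, 0.20 and -0.040 in vehicle replicates 1 to 3. All digoxin arrays were below all vehicle arrays, with vehicle replicate 3 close to the digoxin arrays and the other 2 vehicle arrays well above them. The log2 change was -0.28 (SE 0.07, 95% interval -0.43 to -0.12), and the vehicle level was 1.21 times the digoxin level. Pprc1 did not pass in limma with all arrays (adjusted p = 0.114). It passed without vehicle replicate 3, where the change was -0.35 (adjusted p = 0.0203), and with array weights (-0.35, adjusted p = 0.0107).

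Among the receptors, Ppara is the gene of a PPAR isoform that drives fatty acid oxidation genes. It had centred log2 values of 0.27, 0.45, 0.34, 0.31 and 0.34 in digoxin replicates 1 to 5, against -0.028, -0.11 and 0.010 in vehicle replicates 1 to 3. All digoxin hearts were above all vehicle hearts, and both groups were narrow. The means were 0.34 ± 0.07 in digoxin hearts and -0.041 ± 0.06 in vehicle hearts (SD, n = 5 and 3). The log2 change was 0.38 (SE 0.05, 95% interval 0.27 to 0.50), or 1.30 times the vehicle level, and 98.5% of all genes had a lower change. With any array left out the change was 0.35 to 0.41, and its adjusted p in limma was at most 0.0459 (without vehicle replicate 2).

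Ppard, the gene of the more broadly expressed PPAR delta, had centred log2 values of -0.0015, 0.00061, 0.13, 0.00 and 0.10 in digoxin replicates 1 to 5, against -0.15, -0.039 and -0.095 in vehicle replicates 1 to 3. The digoxin arrays were above the vehicle arrays, 3 of them by a narrow margin. The log2 change was 0.14 (SE 0.05, 95% interval 0.03 to 0.26), and Ppard did not pass in limma (adjusted p = 0.298). A second probe set, annotated to Ppard together with 1810013A23Rik and so not used for the gene, differed by -0.030 between the groups, with means of 0.10 in digoxin hearts and 0.13 in vehicle hearts. The intervals of Ppara and Ppard did not overlap, and the change of Ppara had the larger size.

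The ERR genes encode orphan nuclear receptors through which PGC-1 acts on respiratory chain genes, and none of the 3 was apart between the groups. Esrra, the gene of ERR alpha, had centred log2 values of 0.021, 0.0033, -0.12, -0.037 and -0.018 in digoxin replicates 1 to 5, against -0.025, -0.038 and 0.040 in vehicle replicates 1 to 3. The arrays were mixed, and the log2 change was -0.022 (SE 0.05, 95% interval -0.13 to 0.08). For Esrrg, the gene of ERR gamma, which is abundant in heart, the values were 0.0026, 0.054, 0.017, -0.12 and 0.022 in digoxin replicates 1 to 5, against -0.0011, 0.00 and -0.34 in vehicle replicates 1 to 3. Vehicle replicate 3 stood apart from the other 7 arrays, and the log2 change of 0.11 (95% interval -0.08 to 0.30) became -0.0040 without it.

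Esrrb, the gene of ERR beta, which is best known from pluripotent cells, ranged from -0.18 to 0.24 with a median of 0.016 in digoxin hearts and held -0.066, 0.074 and -0.16 in vehicle replicates 1 to 3. The digoxin range enclosed all vehicle values, and the log2 change was 0.068 (95% interval -0.14 to 0.28), with 0.012 without vehicle replicate 3 and 0.13 without vehicle replicate 2. The intervals of the ERR genes bound any change at this number of arrays and do not show that there was none.

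Nrf1, the respiratory chain activator gene, had centred log2 values of -0.11, 0.0033, -0.040, 0.091 and 0.00 in digoxin replicates 1 to 5, against 0.021, -0.086 and -0.044 in vehicle replicates 1 to 3. The groups were mixed, with a log2 change of 0.025 (SE 0.05, 95% interval -0.10 to 0.15). Tfam had values of 0.076, -0.051, 0.11, -0.10 and -0.091 in digoxin replicates 1 to 5, against -0.031, 0.15 and -0.48 in vehicle replicates 1 to 3. The highest and the lowest of the 8 arrays were both vehicle arrays. The log2 change of 0.11 had the widest interval of the 10 genes (-0.18 to 0.40), and it was -0.069 without vehicle replicate 3. Vehicle replicate 3 held the lowest of the 8 values in 3 of the 10 genes, and in 25.6% of all genes (5688 of 22180). It held the highest value in 1 of the 10 genes, and in 6378 of the 22180.

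**Figure D3:**
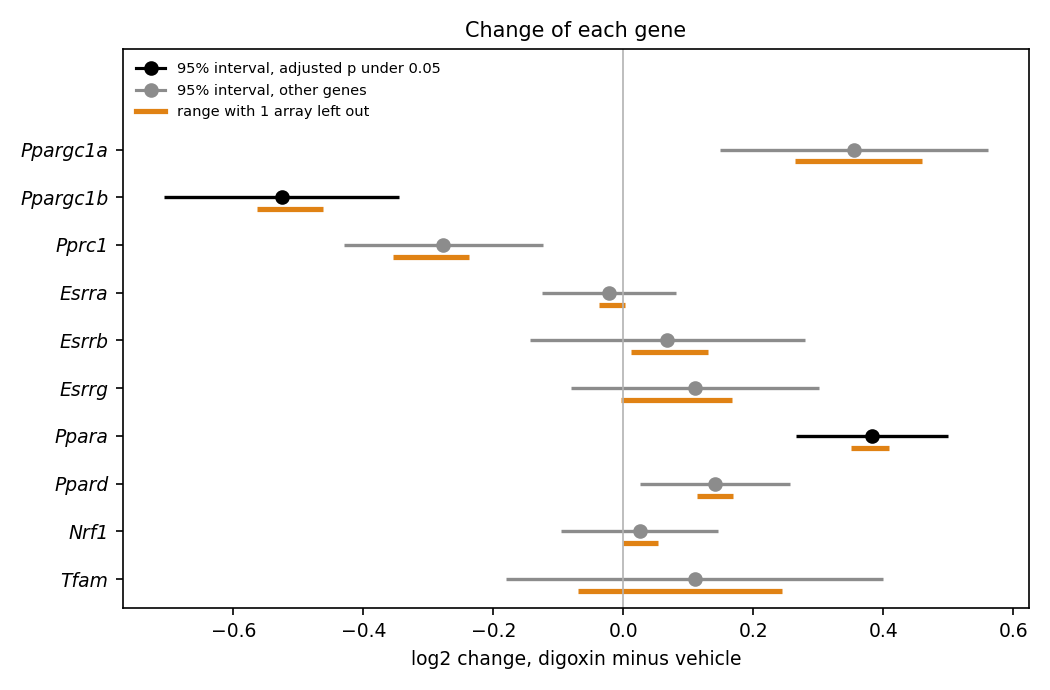
Log2 change of each regulator, digoxin minus vehicle (horizontal axis), with its 95% interval from limma, in black for the genes with an adjusted p under 0.05 and in grey for the others, and below it in orange the range of the change with 1 array left out. The ranges of Ppargc1b (-0.56 to -0.46) and Ppara (0.35 to 0.41) are narrow and far from 0, and those of Esrra, Esrrg, Nrf1 and Tfam include 0.

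Ordered by their log2 change, the 10 genes ran from Ppargc1b (-0.53) and Pprc1 (-0.28) over Esrra (-0.022), Nrf1 (0.025), Esrrb (0.068), Tfam (0.11), Esrrg (0.11) and Ppard (0.14) to Ppargc1a (0.36) and Ppara (0.38). The intervals of neighbours in this order overlapped for every pair. Within the coactivator family, the interval of Ppargc1a overlapped neither of the other 2.

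Ppara had the largest moderated t of the 10 genes in size, and the genes whose pattern over the 8 arrays was nearest to it, by the root mean square difference after centring each gene on its own mean, were Col4a2 (0.0485), Gpt2 (0.0630), Pop4 (0.0639), Gpihbp1 (0.0643) and Rab31 (0.0666). Col4a2 encodes a basement membrane collagen, Gpt2 the mitochondrial alanine aminotransferase, and Gpihbp1 the protein that carries lipoprotein lipase to the capillary surface. Their log2 changes lay between 0.27 and 0.47, against 0.38 for Ppara. Changes near that of Ppara follow from picking the genes by pattern over these same arrays, and shared regulation was not tested.

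The genes around these regulators were taken from 7 lists by function, with 224 measured genes. Of these, 2 rose, none fell and 222 did not pass in limma. Over all genes, 0.947% were called higher and 0.415% lower, 1.36% in all. The lists were drawn up with earlier results of these data known. Slc25a33, among the genes that rose, was listed with its rise already known, so nothing is read from these shares. Several list medians depended on vehicle replicate 3. A count of 0 genes past the test does not show that a list did not move.

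Of 24 partner factors, cofactors and corepressors, 1 rose and 23 did not pass, with a median log2 change of 0.059, or -0.019 without vehicle replicate 3. The gene that rose was Lpin1, which encodes lipin 1, a phosphatidate phosphatase that also acts as a coactivator of PPAR alpha with PGC-1 alpha. Its centred log2 values were 0.12, 0.24, 0.29, 0.18 and 0.35 in digoxin replicates 1 to 5, against -0.25, -0.25 and -0.11 in vehicle replicates 1 to 3. No digoxin value reached down to a vehicle value, and the log2 change was 0.44 (SE 0.06, adjusted p = 0.0128 in limma). The call was lost without vehicle replicate 1 (adjusted p = 0.0524) or 2 (adjusted p = 0.0617). Ncoa3, a steroid receptor coactivator gene named after its value was seen, stood just outside the threshold at 0.37 (adjusted p = 0.0502). The heterodimer partner Rxra stood at 0.16 (95% interval 0.01 to 0.32, adjusted p = 0.368), and Perm1, a muscle regulator downstream of PGC-1 and ERR, at -0.018 (95% interval -0.24 to 0.20), both also named after their values were seen.

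None of 28 genes of signals that act on PGC-1 passed in limma, and their median log2 change was -0.014, or -0.063 without vehicle replicate 3. The members of smallest p were Sik1, a kinase gene induced by cAMP, at 0.53 (95% interval 0.23 to 0.82, adjusted p = 0.120), and Creb1, the gene of the cAMP response factor CREB, at -0.34 (95% interval -0.58 to -0.10, adjusted p = 0.215). In Sik1, digoxin hearts ranged from 0.00 to 0.53 and vehicle hearts from -0.43 to -0.021, without overlap. In Creb1, digoxin hearts ranged from -0.43 to 0.00 and vehicle hearts from -0.089 to 0.27, and the ranges overlapped. Creb1 passed with array weights (-0.48, adjusted p = 0.0293), and stood at -0.20 (adjusted p = 0.225) with the mean of 8 atrial markers as a covariate.

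The nuclear-encoded machinery that TFAM works with, 19 genes of mitochondrial DNA maintenance and transcription, had a median log2 change of 0.035, or -0.038 without vehicle replicate 3, and no gene past the test. Tfb2m, a mitochondrial transcription factor gene, stood at 0.18 (adjusted p = 0.325) and the protease gene Lonp1 at 0.16 (adjusted p = 0.445), which was 0.058 without vehicle replicate 3. Of 72 nuclear subunits of the respiratory chain and ATP synthase, 34 had higher and 38 lower means in digoxin hearts, none passed, and the median was -0.0034, or -0.028 without vehicle replicate 3. The whole list lay between -0.25 (Atp5j2, adjusted p = 0.269) and 0.19, and Cox6b1 stood at 0.11 (adjusted p = 0.304). Without vehicle replicate 1, Atp5j2 passed at -0.37 (adjusted p = 0.0206). Of 17 genes of the tricarboxylic acid cycle and pyruvate dehydrogenase none passed either, and the median was 0.045, or 0.019 without vehicle replicate 3. Pdhx stood at 0.17 (adjusted p = 0.599) and Pdhb at 0.14 (adjusted p = 0.590). Without vehicle replicate 3 these were 0.027 and 0.055, and Pdhx was 0.29 without vehicle replicate 2.

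Among 39 PPAR targets of fatty acid use, 26 had higher and 13 lower means in digoxin hearts, none passed, and the median log2 change was 0.034, or 0.057 without vehicle replicate 3. Dgat2, which makes triglyceride, stood at 0.20 (95% interval 0.08 to 0.31, adjusted p = 0.138), and Eci2, an isomerase of fatty acid oxidation, at 0.23 (95% interval 0.04 to 0.43, adjusted p = 0.303). The top of the list was Pdk4, a kinase gene that PPARs are known to induce, at 0.46, with wide error (95% interval 0.03 to 0.90, adjusted p = 0.372). It had means of 0.18 ± 0.22 in digoxin hearts and -0.28 ± 0.44 in vehicle hearts (SD, n = 5 and 3), and was named after its value was seen. The bottom of the list was Cpt1a at -0.21 (95% interval -0.54 to 0.13, adjusted p = 0.613 in limma). Cpt1a was also named after its value was seen.

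Of 25 other mitochondrial and PGC-1-linked genes, 1 rose and 24 did not pass, with a median of 0.039, or 0.021 without vehicle replicate 3. The gene that rose was Slc25a33, a mitochondrial pyrimidine nucleotide carrier, which was listed with its rise in these hearts already known. Its centred log2 values were 1.26, 0.99, 0.96, 1.005 and 1.01 in digoxin replicates 1 to 5, against -0.40, -0.35 and -0.61 in vehicle replicates 1 to 3. The groups were far apart, and the log2 change was 1.501 (SE 0.08, adjusted p = 0.00010 in limma).

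**Figure D4:**
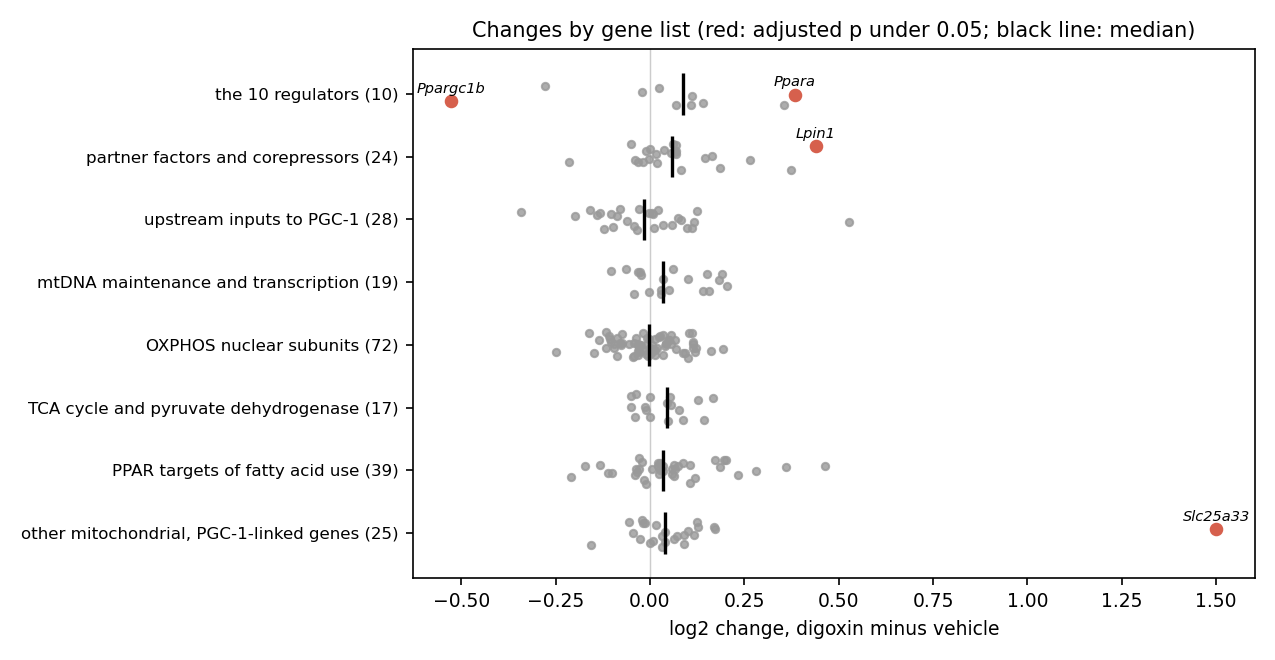
Log2 change of every measured gene, digoxin minus vehicle (horizontal axis), for the 10 regulators (top row) and the 7 lists of related genes, with the number of genes in parentheses, genes with an adjusted p under 0.05 in red and named, and the median of each row as a black line. With all arrays, medians of the 7 lists lie between -0.014 and 0.059 (between -0.063 and 0.057 without vehicle replicate 3, not drawn), and the genes in red there are Lpin1 (0.44) and Slc25a33 (1.501).

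Markers of atrial tissue were lower on average in digoxin hearts. All 8 atrial cardiomyocyte markers had lower means there, with a median log2 change of -0.74 (-1.18 without vehicle replicate 3). Nr2f2 among them fell (-0.48, adjusted p = 0.0467 in limma). The other 7 did not pass, and each of them overlapped between the groups. The mean over the list ranged from -0.39 to 1.58 in digoxin hearts and from 0.28 to 2.09 in vehicle hearts, so the groups overlapped. That mean was also used as a covariate, an alternative added later with the values in view. The log2 change was then -0.53 for Ppargc1b, 0.38 for Ppargc1a, 0.35 for Ppara and -0.19 for Pprc1. The same 2 genes passed in limma, with larger adjusted p values. These were 0.0471 for Ppargc1b (0.0170 without the covariate) and 0.0320 for Ppara (0.00921 without it). Beyond this, the part of atrial tissue in these values was not tested.

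The 9 cardiomyocyte markers had a median log2 change of -0.0020 and none passed. Of 8 endothelial markers, Esam rose (0.46, adjusted p = 0.0486 in limma) and the median was -0.039. None passed among the markers of fibroblasts (7 measured, median -0.11), smooth muscle and pericytes (8, median 0.15), macrophages (8, median -0.061), neutrophils (6, median -0.058), brown and white adipocytes (8, median 0.0092), erythroid cells (2, median -0.12) and skeletal muscle (8, median -0.087). Without vehicle replicate 3 the median was -0.20 for macrophages, -0.073 for endothelium, -0.0017 for neutrophils and -0.10 for fibroblasts. The median was then 0.20 for smooth muscle and pericytes, -0.19 for erythroid cells, 0.037 for adipocytes, -0.0076 for skeletal muscle and -0.0072 for cardiomyocytes. With all arrays, 7 of the 8 smooth muscle and pericyte markers had higher means in digoxin hearts and 1 a lower mean. In the adipocyte list, which bears on Ppargc1a because brown fat expresses it strongly, the mean over the list ranged from -0.090 to 0.13 in digoxin hearts and from -0.079 to 0.019 in vehicle hearts. Of its 8 markers, 4 had higher and 4 lower means in digoxin hearts. Only 1 was without overlap, Cidea at 0.22 (adjusted p = 0.122 in limma), named after its value was seen. Ucp1 stood at 0.050, Elovl3 at 0.025 and Dio2 at -0.0046.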

How the data were processed

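Heart RNA from 5 digoxin and 3 vehicle samples was analysed, grouped by the sample titles. Per the series design text, the authors normalised the arrays with Robust Multi-array Average in the GIANT Galaxy tools, and the submitters' processing notes also list limma. Tool versions were not given in the sources used here. In the deposited table each probe set's log2 values are centred on an unstated constant, and the log base is taken from that method.

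Of 34351 probe sets, 23521 had 1 gene symbol in the platform annotation and were averaged to 22180 genes, 1814 had several and 9016 had none listed there. Each of the 10 regulators rests on 1 probe set. Digoxin minus vehicle was fitted in R 4.3.3 by limma 3.58.1 with lmFit and eBayes, and two-sided p values were adjusted over all genes by the Benjamini-Hochberg method (threshold 0.05). Intervals are those of the moderated fit with 8.75 degrees of freedom. In a test on simulated data for this comparison over 22180 genes with 200 changed, 70% were recovered at a log2 change of 0.5 and 98% at 1, and 5.62% of the calls were false. With all arrays, only Ppargc1b among the regulators changed by as much as 0.5. Smaller changes were not simulated, so these rates do not cover the other regulators.

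Members, lists and markers were chosen with earlier results of these data known. Named were all 10 regulators, the genes past the test in each list, otherwise its 2 of smallest p, and the 5 genes nearest in pattern to the regulator of largest t. Where a list name was not found, RefSeq synonyms were tried. Alternatives covered normalization, probe sets, variance model, array weights, thresholds, the replicate block and each array left out.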

Additional observations from a re-analysis of the deposited data

Results flagged for a closer look

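The 5 digoxin arrays were searched for 1 array far from the rest in 43 values, namely 22 genes (the regulators and the related genes named from the lists) and the mean of each of 21 lists. Chance alone would mark about 1 in 20, and 5 were marked. None of the 10 regulators was among them. Digoxin replicate 4 was low in Pdhb (-0.24, against 0.024 to 0.13 on the other digoxin arrays), in the mean of the 25 other mitochondrial and PGC-1-linked genes (-0.050, against 0.040 to 0.070) and in the mean of the skeletal muscle markers (-0.12, against -0.022 to 0.0047). Digoxin replicate 1 was high in Slc25a33 (1.26, against 0.96 to 1.01). Digoxin replicate 5 was low in the mean of the 2 erythroid markers (-0.14, against -0.043 to -0.0064). The vehicle group, with 3 arrays, was not searched.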

How the results depend on the processing

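Ppargc1b and Ppara were the 2 regulators past the test with all arrays. The same 2 passed with quantile or scale normalization, the robust variance model and the atrial covariate. Fitting the probe sets singly could not alter their log2 changes, because each regulator rests on 1 probe set. Their adjusted p in limma was then 0.0184 for Ppargc1b and 0.0102 for Ppara. Both had to pass the looser threshold of 0.10, which could only add regulators and added none. With array weights, without vehicle replicate 3, and with digoxin replicate 4 and vehicle replicate 3 left out together (an alternative added later, as was the atrial covariate, with the values in view), Pprc1 passed as well, its change being -0.37 in the last of these. With all arrays and the values as deposited, no regulator (0) changed by at least 1.5 times, while Ppargc1b did with quantile (-0.61) and scale (-0.60) normalization. Leaving out 1 array gave 1 to 3 past the test. No call reversed its sign in any setting run. The median change of the regulators, 0.089 with all arrays, was 0.051 with quantile normalization, 0.040 with scale normalization, 0.028 with array weights, 0.115 with the atrial covariate and 0.014 without both doubted arrays, and with 1 array left out it had its lowest value, 0.0071, when vehicle replicate 3 was dropped and its highest, 0.15, when vehicle replicate 2 was. Of the related genes, 1 to 3 passed with 1 array left out, against 2 with all arrays. The causes were not tested.

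The replicate numbers mark no shared animal or day in the labels, and same-numbered arrays did not deviate together (correlations across genes of -0.20, -0.018 and 0.024 for numbers 1 to 3). With the replicate block, 0 regulators and 1 related gene (Slc25a33) passed, while 12 genes passed in all, against 302 without it. The block changed the log2 changes little (-0.53 for Ppargc1b and 0.39 for Ppara), and leaves 2 residual degrees of freedom. Centred values allow no filter on dim genes, and signal over background is unknown.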
